A study of Mus musculus with 6 samples.

Results

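Neurofilament genes and the genes of neuronal microtubule-associated proteins (MAPs) were followed in the hippocampus of mice with amyloid-prone *App* alleles and no *Mutyh*. The list held 10 genes, of 22180 genes with a transcript cluster of their own on the array. *Nefl*, *Nefm*, and *Nefh* encode the light, medium, and heavy neurofilament subunits, *Ina* encodes α-internexin, and *Prph* encodes peripherin. *Mapt*, *Map2*, *Map1a*, *Map1b*, and *Map6* encode tau and 4 other proteins that bind microtubules. A member was measured by the transcript cluster that carried its symbol alone, and *Map6*, the only member with more than 1 such cluster, by the one of its 2 with the higher mean. No measured difference entered this choice.

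Neurofilaments are the intermediate filaments of neurons. They fill the axon, set its calibre, and are released into fluid when axons are injured. MAPs stabilise and space microtubules, with tau mostly in the axon and MAP2 in dendrites and the cell body, and tau forms the tangles of Alzheimer's disease.

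Total RNA from the hippocampus of 3 wild-type mice and 3 *Mutyh*-/- mice homozygous for *App* NL-G-F (hereafter NL-G-F·*Mutyh* mice), all females 6 months of age, was hybridised to Affymetrix Mouse Gene 2.0 ST arrays, with 1 array per mouse. The NL-G-F alleles carry the Swedish, Arctic, and Beyreuther/Iberian mutations in a humanised amyloid-β sequence under the endogenous *App* promoter, and *Mutyh* encodes the DNA glycosylase that removes adenine opposite 8-oxoguanine. Both alleles had been backcrossed to C57BL/6J, the 3 strains came from a double-heterozygous cross, and each was then kept as an inbred strain. NL-G-F mice with intact *Mutyh* were not analysed here, so the *App* and *Mutyh* alleles cannot be told apart. The wild-type arrays were re-used from a previous series, and a difference between series cannot be told apart from one between genotypes.

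Signals are on the log2 scale as deposited, and a value in % wild type is taken from the difference of the group means on that scale. Transcript clusters whose mean reached an intensity of 50 (a log2 signal of 5.64) in at least 1 group, 21159 in all, were compared with limma and called at an adjusted *p* under 0.05. Correlations between arrays ran from 0.983 to 0.987 in the wild-type group, from 0.988 to 0.989 in the NL-G-F·*Mutyh* group, and from 0.983 to 0.986 between the groups. The knock-in leaves *App* under its own promoter, and its mean signal was 12.05 (SD 0.09) in the 3 wild-type mice and 11.94 (SD 0.12) in the 3 NL-G-F·*Mutyh* mice. *Mutyh* lay under the intensity minimum on all arrays, which leaves the knockout unchecked here.

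No member passed the adjusted test, of 9 that were tested. Over all tested transcript clusters the share called was 0.0614%. *Mapt* stood at 83.1% wild type and its signals did not overlap between the groups. *Map2* stood at 108% wild type, also without overlap. The 4 tested neurofilament genes ran from 101% to 119% wild type, and *Map1a*, *Map1b*, and *Map6* from 96.7% to 103%. Of the 9 tested members, 7 lay within 10% of the wild-type level.

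At an unadjusted *p* under 0.05, 1 member was lower (*Mapt*) and 0 were higher. The same held for 4.75% of all tested transcript clusters in the lower direction and 8.88% in the higher. The groups did not overlap for 1 member that was lower (*Mapt*) and 1 that was higher (*Map2*), beside 8.11% and 13.9% of all tested transcript clusters. By sign alone 6 tested members were higher and 3 lower, though *Nefh* and *Ina* turned to −0.03 and *Map1b* to −0.0074 when arrays were centred on the median of all transcript clusters, and 56.8% of all tested transcript clusters were higher. The median log2 difference was 0.06 over the 4 tested neurofilament genes, −0.0048 over the 5 MAP genes, and 0.02 over all tested transcript clusters. The neurofilament median was 0.11 without wild-type replicate 1, 0.03 without wild-type replicate 2 or 3, and 0.01 with arrays centred on all transcript clusters. The MAP median was 0.08 without wild-type replicate 1 and −0.07 without wild-type replicate 3.

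**Figure D1:**
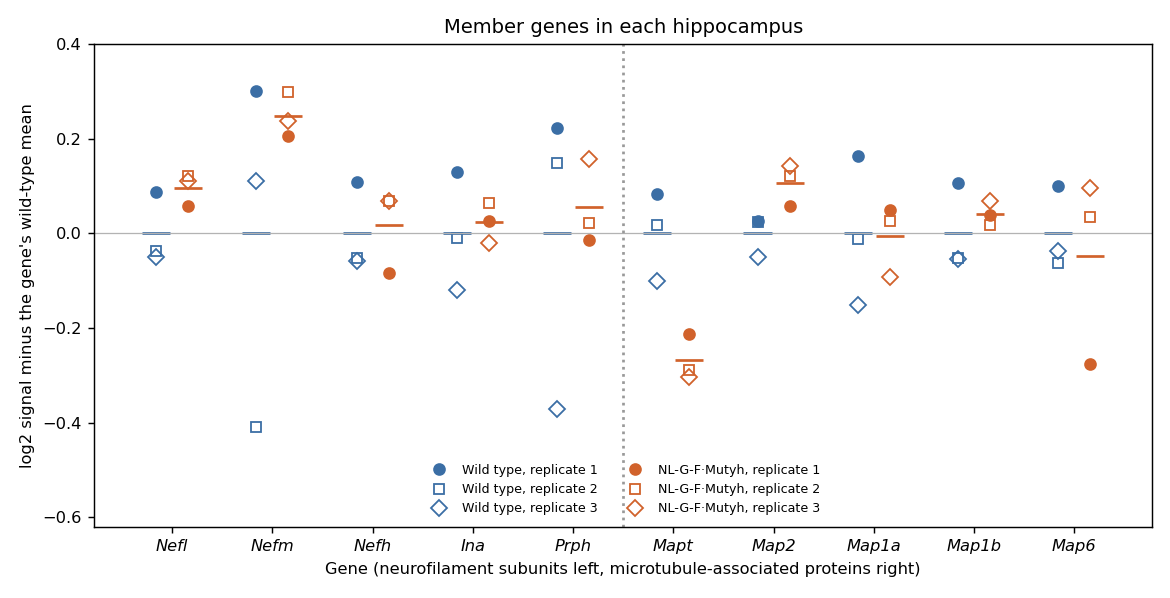
Each member's log2 signal in each hippocampus minus the wild-type mean of that gene (y axis), with wild-type mice in blue, NL-G-F·*Mutyh* mice in orange, a symbol for each replicate, and bars at the group means. *Mapt* is the member whose NL-G-F·*Mutyh* points all lie below the wild-type points, by 0.21 to 0.30 below the wild-type mean, and wild-type replicate 2 lies 0.41 below the mean of its group for *Nefm*.

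*Mapt*, encoding tau, had signals of 8.42, 8.36, and 8.24 in wild-type replicates 1 to 3. In NL-G-F·*Mutyh* replicates 1 to 3 they were 8.13, 8.05, and 8.04. Every NL-G-F·*Mutyh* mouse was thus below every wild-type mouse, and the gap between the nearest mice exceeded the SD of either group. The means were 8.34 ± 0.09 and 8.07 ± 0.05 (*n* = 3 each). The log2 difference was −0.27 with a standard error of 0.08 and a 95% interval from −0.45 to −0.09, which is 73.3% to 94.2% wild type. Its *p* in limma was 0.0102, and 0.257 after adjustment over all tested transcript clusters. The difference stayed negative in all 16 alternative settings, from −0.32 to −0.23, with unadjusted *p* from 0.00496 to 0.0386 and adjusted *p* from 0.115 to 0.551 (limma). In none of them did tau mRNA pass the adjusted test.

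*Map2*, whose product is the MAP of dendrites, gave 11.32, 11.32, and 11.25 in wild-type mice. NL-G-F·*Mutyh* mice gave 11.36, 11.42, and 11.44. The groups did not overlap, but the highest wild-type mouse and the lowest NL-G-F·*Mutyh* mouse were close, at 0.03 and 0.06 above the wild-type mean. The log2 difference was 0.11 with a standard error of 0.07 and a 95% interval from −0.05 to 0.26, or 96.6% to 120% wild type (limma, adjusted *p* = 0.504). Over the 16 alternatives it ran from 0.06 to 0.13 and the unadjusted *p* of limma was never below 0.0886.

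**Figure D2:**
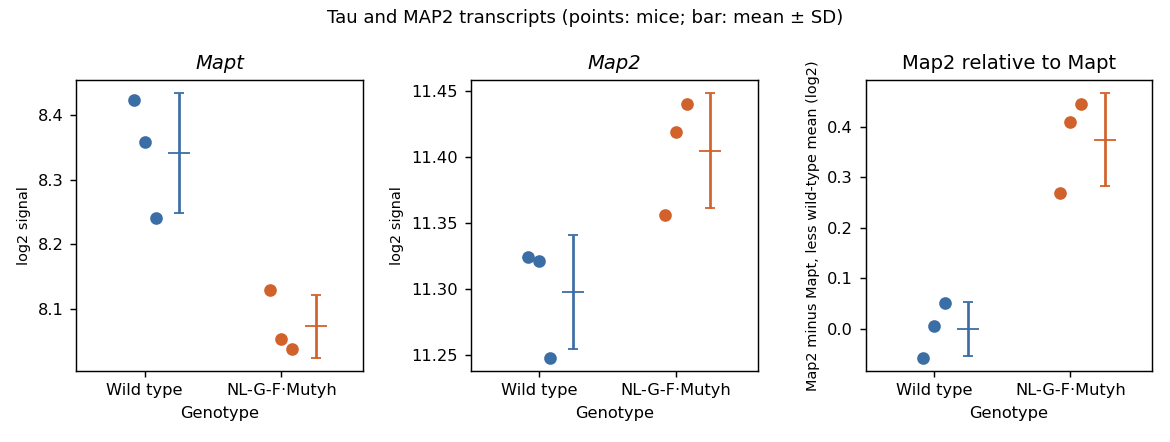
Log2 signal of *Mapt* (left) and *Map2* (middle) in each mouse, and the log2 difference of *Map2* and *Mapt* on the same array less its wild-type mean (right), for wild-type (blue) and NL-G-F·*Mutyh* mice (orange), with bars at the mean ± SD of 3 mice. *Mapt* is lower and *Map2* higher in each NL-G-F·*Mutyh* mouse than in any wild-type mouse, and the right panel runs from −0.06 to 0.05 in wild-type mice and from 0.27 to 0.45 in NL-G-F·*Mutyh* mice.

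The difference between *Map2* and *Mapt* on one array does not depend on how that array was scaled as a whole. It lay −0.06, 0.01, and 0.05 from its wild-type mean in wild-type replicates 1 to 3 and 0.27, 0.41, and 0.45 above that mean in the NL-G-F·*Mutyh* replicates. The ratio of *Map2* to *Mapt* signal was thereby 130% wild type. *Map1b* against *Mapt* gave 124% wild type, with 0.25, 0.31, and 0.37 above the wild-type mean in the NL-G-F·*Mutyh* replicates. These pairs were chosen after the values had been seen, so they are descriptions without a test. They show unequal signals of a pair of genes and not which of the pair was altered.

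Upstream sequence outside the annotated gene was at hand for 4 of the 10 members, and 3 are shown, the MAP gene whose signals were all higher in NL-G-F·*Mutyh* mice (*Map2*) beside a MAP gene and a neurofilament gene whose groups overlapped (*Map1b*, *Ina*). The sequences are from RefSeq (GRCm38.p6), 5′ to 3′ on the strand of the gene, and end where the annotated gene begins. Capitals mark the GC box GGGCGG and the letters TATAAA, each read on either strand. In the *Map1b* sequence TATAAA lies nearer the middle than the end at the gene.
Map2: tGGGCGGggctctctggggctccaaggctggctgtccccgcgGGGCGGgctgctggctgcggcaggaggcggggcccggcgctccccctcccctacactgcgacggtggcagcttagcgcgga
Ina: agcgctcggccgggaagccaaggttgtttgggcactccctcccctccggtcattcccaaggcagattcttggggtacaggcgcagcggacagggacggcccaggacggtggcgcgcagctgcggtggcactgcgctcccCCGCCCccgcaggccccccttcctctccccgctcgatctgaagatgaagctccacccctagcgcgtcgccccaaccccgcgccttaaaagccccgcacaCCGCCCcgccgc
Map1b: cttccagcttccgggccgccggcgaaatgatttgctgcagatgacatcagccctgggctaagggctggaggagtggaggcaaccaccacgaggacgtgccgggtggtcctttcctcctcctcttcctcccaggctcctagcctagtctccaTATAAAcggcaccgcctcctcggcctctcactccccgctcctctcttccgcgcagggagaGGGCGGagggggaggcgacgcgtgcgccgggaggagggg

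The *Map2* sequence (chr1:66175079-66175201, plus strand) had 77.2% G and C and 2 GC boxes in 123 bases. Of all 32851 promoters in the table, 13.2% held a GC box within the first 123 of their 250 bases, the part farthest from the transcription start. The *Map2* sequence is the same part of its own window, whose remaining bases lay inside the annotated gene. The *Ina* sequence (chr19:47014431-47014680, plus strand) had 70.8% G and C and 2 GC boxes, and that of *Map1b* (chr13:99516603-99516852, minus strand) had 66.4%, 1 GC box, and 1 TATAAA. Over 250 bases, 32.7% of all promoters held a GC box and 12.4% a TATAAA, and the median G and C content was 52.4%. The 3 sequences thus all held GC boxes, whether or not the signals of the groups overlapped. A match of letters is a description and not a site of binding.

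*Map1b*, encoding a MAP of growing axons that stays present in the adult brain, gave 12.24, 12.08, and 12.08 in wild-type mice and 12.17, 12.15, and 12.20 in NL-G-F·*Mutyh* mice. The NL-G-F·*Mutyh* mice lay inside the wild-type range, and the log2 difference was 0.04 (95% interval −0.13 to 0.22, limma, adjusted *p* = 0.828). For *Map1a*, the related MAP of mature dendrites, wild-type mice gave 9.68, 9.51, and 9.37 and NL-G-F·*Mutyh* mice 9.57, 9.55, and 9.43. Here too the second group lay wholly within the range of the first, with a log2 difference of −0.0048 (95% interval −0.24 to 0.23, limma, adjusted *p* = 0.987). For *Map1a* the interval allows 84.8% to 117% wild type, and for *Map1b* 91.2% to 116%.

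*Map6* encodes the protein that makes microtubules resistant to cold. Its signals were 8.12, 7.96, and 7.98 in wild-type mice and 7.74, 8.05, and 8.11 in NL-G-F·*Mutyh* mice. NL-G-F·*Mutyh* replicate 1 was the lowest mouse. The log2 difference was −0.05 (standard error 0.11, limma, adjusted *p* = 0.879), and turned to 0.07 without this mouse and to 0.0013 without wild-type replicate 1. The other *Map6* transcript cluster read 6.52, 6.57, and 6.50 in wild-type mice and 6.23, 6.47, and 6.39 in NL-G-F·*Mutyh* mice. There the groups did not overlap, NL-G-F·*Mutyh* replicate 1 was again the lowest mouse, and the log2 difference was −0.17 (95% interval −0.36 to 0.03, 89.1% wild type, limma, adjusted *p* = 0.416). The 2 clusters of *Map6* therefore differed in whether the groups overlapped, and neither passed the test.

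**Figure D3:**
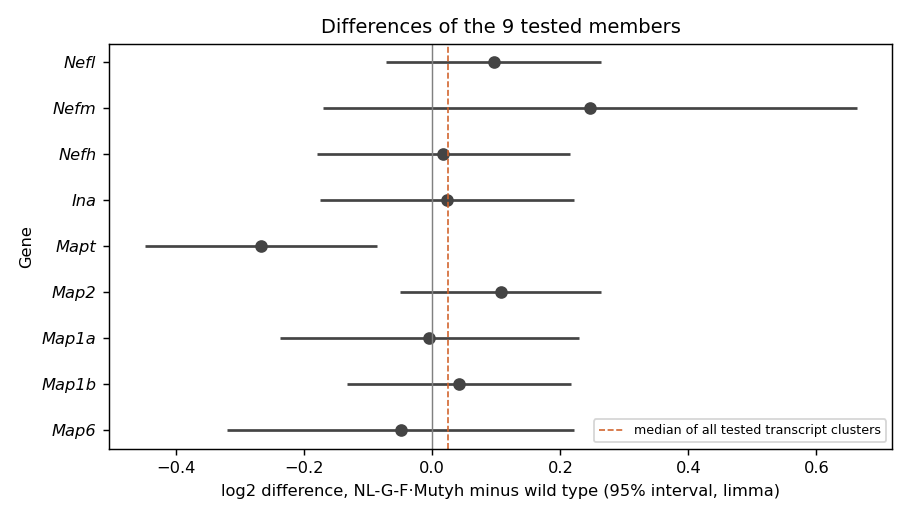
Log2 difference, NL-G-F·*Mutyh* minus wild type (x axis), of the 9 tested members with its 95% interval from limma, a grey line at 0, and a dashed line at 0.02, the median of all tested transcript clusters. *Mapt* has the only interval that lies wholly on one side of 0, and *Nefm* has the widest, from −0.17 to 0.66.

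Among the neurofilament genes, *Nefl*, whose product is the core subunit on which the others assemble, gave 11.23, 11.11, and 11.09 in wild-type mice and 11.20, 11.27, and 11.26 in NL-G-F·*Mutyh* mice. All NL-G-F·*Mutyh* mice were above wild-type replicates 2 and 3, and wild-type replicate 1 lay among them. The log2 difference was 0.10 (95% interval −0.07 to 0.26, 107% wild type, limma, adjusted *p* = 0.571). *Nefh*, encoding the heavy subunit with its long phosphorylated tail, gave 8.50, 8.34, and 8.34 in wild-type mice and 8.31, 8.46, and 8.46 in NL-G-F·*Mutyh* mice. In each group 1 mouse stood away from the other 2, in opposite directions, and the log2 difference was 0.02 (95% interval −0.18 to 0.22, limma, adjusted *p* = 0.947).

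*Nefm*, for the medium subunit, gave 8.51, 7.80, and 8.32 in wild-type mice and 8.42, 8.51, and 8.45 in NL-G-F·*Mutyh* mice. The NL-G-F·*Mutyh* mice lay close together (SD 0.05), whereas wild-type replicate 2 was far below the other 2 of its group (SD 0.37). The log2 difference of 0.25 (standard error 0.17, 119% wild type, limma, adjusted *p* = 0.56) was 0.04 without wild-type replicate 2 and 0.40 without wild-type replicate 1. A further transcript cluster carried the symbols of *Nefm* and of *A230070E04Rik*, a noncoding gene that overlaps it in the RefSeq annotation, and was not used for *Nefm*. On it wild-type mice read 8.24, 8.03, and 7.94 and NL-G-F·*Mutyh* mice 8.25, 8.25, and 8.15, with a log2 difference of 0.15 (limma, adjusted *p* = 0.519). On this cluster wild-type replicate 2 was not the lowest mouse of its group. *Nefl* and *Nefm* are neighbours on chromosome 14 with no protein-coding gene between them.

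*Ina*, encoding α-internexin, which joins the neurofilaments of central neurons, gave 11.40, 11.26, and 11.15 in wild-type mice and 11.29, 11.33, and 11.25 in NL-G-F·*Mutyh* mice. The wild-type mice enclosed the other group, and the log2 difference was 0.02 (95% interval −0.18 to 0.22, limma, adjusted *p* = 0.927). *Prph*, whose product is found mostly in peripheral neurons, was below the intensity minimum in both groups (4.99 ± 0.32 and 5.04 ± 0.09) and was not tested. Ratios between neurofilament genes on the same array lay close to those of wild-type mice, with *Nefl* to *Nefh* at 106% and *Nefl* to *Ina* at 105% wild type.

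Wild-type replicate 1 was the highest of the 3 wild-type mice for 10 of the 10 members, and the highest of all 6 mice for 8 of them, the exceptions being *Nefl* and *Map2*. It was the highest wild-type mouse for 38.3% of all tested transcript clusters, for 44.4% of the 13988 with a single symbol, and for 51.4% of the 5000 of these with a mean of at least 8. The same mouse was the highest of the wild-type mice for 7 of 8 general neuron markers. NL-G-F·*Mutyh* replicate 1 was the lowest of its group for 6 of the 10 members. The members thus shared their highest wild-type mouse. It was the lowest wild-type mouse for all 4 choroid plexus markers, with *Ttr*, encoding transthyretin, at 11.56 against 13.34 and 13.55 in replicates 2 and 3, and their mean signal ran from 7.75 to 9.57 in wild-type and from 8.14 to 9.22 in NL-G-F·*Mutyh* mice. The part of choroid plexus tissue in the member values was not tested. Relative to the wild-type mean, the median neurofilament member lay 0.12, −0.04, and −0.05 in the wild-type and 0.04, 0.09, and 0.09 in the NL-G-F·*Mutyh* replicates. The median MAP member lay 0.10, −0.01, and −0.05 in the former and 0.04, 0.03, and 0.07 in the latter. Both medians ran highest in wild-type replicate 1.

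Genes whose signals followed the members were sought among 13978 tested transcript clusters with a single symbol, by Pearson's *r* over the 6 arrays. The mean of *Nefl*, *Nefm*, and *Nefh* was followed by *Jsrp1* (*r* = 0.997), *Zfp93* (0.981), *Ptprr* (0.98), *Rtn4rl1* (0.979), and *Map4* (0.979). Each of these genes was lowest in wild-type replicate 2, the mouse in which *Nefm* was far below its group (7.80). *Jsrp1* lay near the intensity minimum (5.63 to 5.93). *Map4*, encoding a broadly expressed relative of tau and MAP2, was highest in wild-type replicate 1 (10.45) and lowest in wild-type replicate 2 (10.30), and the NL-G-F·*Mutyh* mice lay between. The mean of the 5 MAP genes was followed by *Taf3*, *Bin3*, *Pnmal2*, *Mdp1*, and *D430041D05Rik* (*r* = 0.992 to 0.994). All of these points share the same 6 arrays, the genes were picked for the highest *r*, and the lists are descriptions.

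Other genes of the axonal and dendritic cytoskeleton were read from lists by function, and none of their members passed the adjusted test. Beside the counts of these and the later lists stand the shares over all tested transcript clusters. At an unadjusted *p* under 0.05 they were 4.75% lower and 8.88% higher, and without overlap of the groups 8.11% lower and 13.9% higher. Among 12 tested tubulins, 2 were lower and 0 higher at an unadjusted *p* under 0.05, and 9 were lower by sign, with a median log2 difference of −0.04. *Tubb3*, the β-tubulin of neurons, gave 9.53, 9.63, and 9.24 in wild-type mice and 8.97, 8.93, and 9.16 in NL-G-F·*Mutyh* mice. The groups did not overlap, and *Tubb3* stood at 73.4% wild type (−0.45 ± 0.12 on the log2 scale, difference ± standard error, limma, adjusted *p* = 0.237). *Tubb5*, a β-tubulin of many cell types, gave 11.51, 11.36, and 11.27 against 11.07, 11.14, and 11.20, again without overlap, at 84.4% wild type (−0.25, limma, adjusted *p* = 0.309), and the mean over its transcript clusters gave −0.10. Tubulins are close relatives in sequence, and how probes shared between them were treated is not given in the sources used here.

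Of 24 other tested MAPs, *Dcx*, encoding doublecortin of migrating and newborn neurons, was the only one with an unadjusted *p* under 0.05. It read 6.50, 6.76, and 6.42 in wild-type mice and 6.27, 6.11, and 6.40 in NL-G-F·*Mutyh* mice, 81.3% wild type (limma, adjusted *p* = 0.345), and the nearest mice of the groups were almost level. The median log2 difference of this list was 0.01. Of 18 tested kinases and phosphatases that act on tau, *Csnk1e*, a casein kinase, was at 85.9% wild type (7.63 ± 0.06 and 7.41 ± 0.04, limma, adjusted *p* = 0.275). *Ppp3ca*, the catalytic subunit of calcineurin, was at 113% (12.20 ± 0.08 and 12.38 ± 0.07, limma, adjusted *p* = 0.366). No other gene of the list had an unadjusted *p* under 0.05, and the median was 0.02.

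The 17 axonal motor genes ran from −0.17 to 0.15 on the log2 scale, with 0 at an unadjusted *p* under 0.05. The smallest *p* values there were those of *Dctn2*, a dynactin subunit (89.1% wild type), and *Dync1i2*, a dynein intermediate chain (111%). The 4 stathmins, which sequester tubulin, also had 0, with *Stmn4* at 89.0% and *Stmn1* at 115% wild type. Of 10 tested genes for severing microtubules or modifying tubulin, *Svbp*, the partner of the vasohibin carboxypeptidases, was at 88.9% and *Hdac6*, the tubulin deacetylase, at 89.6%, and 0 had an unadjusted *p* under 0.05. *Fign* and *Fignl1*, which encode fidgetin proteins, and *Vash2*, which encodes a vasohibin, were below the intensity minimum and were not tested.

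Among 6 tested spectrins and ankyrins, *Ank1*, an ankyrin that ties membrane proteins to spectrin, gave 7.31, 7.33, and 7.11 in wild-type mice and 6.77, 6.86, and 6.93 in NL-G-F·*Mutyh* mice. It stood at 76.0% wild type without overlap (−0.40 ± 0.09, limma, adjusted *p* = 0.189), but the mean over its transcript clusters gave −0.05. Among 9 other tested intermediate filament and linker genes, *Plec*, encoding the linker plectin, was at 84.8% (7.47 ± 0.07 and 7.24 ± 0.09, limma, adjusted *p* = 0.3). *Gfap*, the intermediate filament of astrocytes, gave 9.89, 9.74, and 9.95 in wild-type mice and 10.54, 10.57, and 10.49 in NL-G-F·*Mutyh* mice. It stood at 160% wild type, a log2 difference of 0.68 with a standard error of 0.08, and its adjusted *p* was 0.0857 (limma). Over the 16 alternatives the adjusted *p* ran from 0.0239 among single-symbol transcript clusters to 0.375 with the replicate block, and was under 0.05 in those of single symbols and array weights alone.

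**Figure D4:**
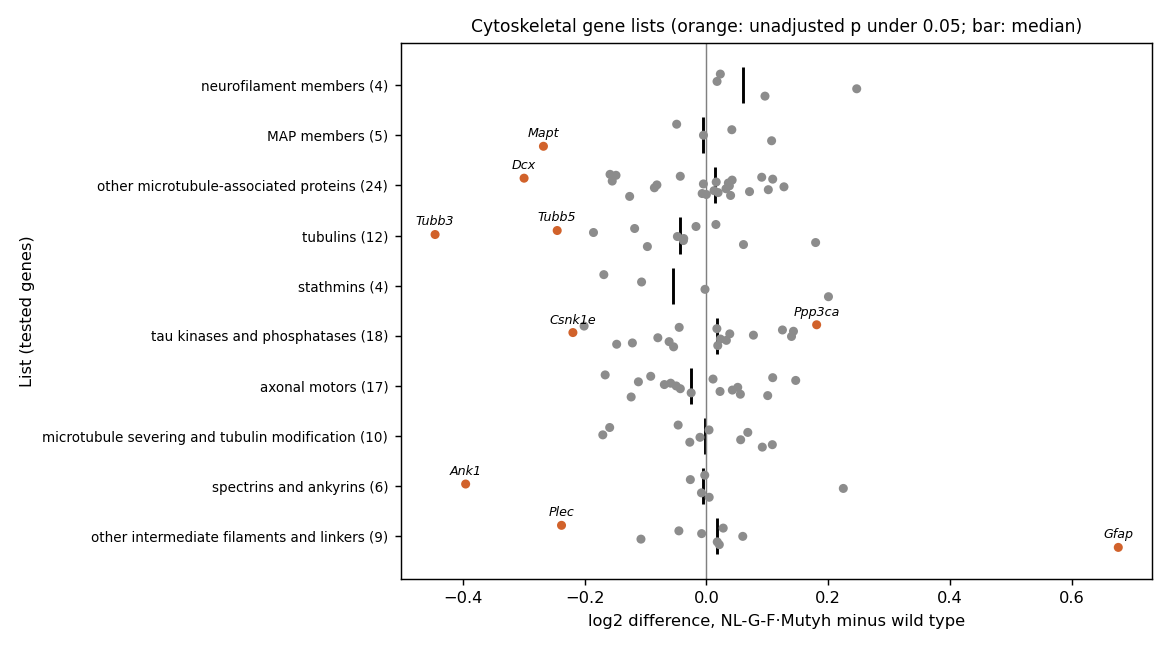
Log2 difference, NL-G-F·*Mutyh* minus wild type (x axis), of each tested gene of the members and the other cytoskeletal lists, with a bar at each list's median and genes with an unadjusted *p* under 0.05 (limma) in orange with their names. The list medians lie between −0.05 and 0.06, *Gfap* lies at 0.68, and *Tubb3*, *Ank1*, *Dcx*, and *Mapt* lie at −0.45, −0.40, −0.30, and −0.27.

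In whole hippocampus, fewer cells of a type and less RNA per cell cannot be told apart. The 8 general neuron markers had a median log2 difference of −0.03, with 0 at an unadjusted *p* under 0.05, and their mean signal ran from 11.26 to 11.41 in wild-type mice and from 11.23 to 11.35 in NL-G-F·*Mutyh* mice. The 9 interneuron markers likewise had 0, with a median of −0.07, and by sign 3 were higher and 6 lower. *Pvalb*, the parvalbumin of fast-spiking interneurons, was at 92.3% wild type, whereas *Gad2* was at 104% and *Lhx6* at 106%. Of 6 oligodendrocyte markers, *Cnp*, *Mog*, and *Mbp* were lower at an unadjusted *p* under 0.05, whereas *Mobp* and *Cldn11* stood at 111% and 107% wild type, and the median was −0.16 (mean signal 9.53 to 9.72 in wild-type mice and 9.45 to 9.57 in the other group).

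Markers of regions were mixed in direction. Of 6 neocortex markers, 1 was lower at an unadjusted *p* under 0.05 (*Cux2*), with a median of −0.17 and a mean signal of 7.60 to 7.93 in wild-type and 7.54 to 7.69 in NL-G-F·*Mutyh* mice. Of 6 thalamus markers, *Slc17a6* was lower at 58.9% wild type and *Prkcd* higher at 118%, with a median of −0.06. Among 4 CA1 markers, 2 were lower by sign and *Mpped1* had an unadjusted *p* under 0.05, at 71.9% wild type, with a median of −0.05. All 6 dentate granule cell markers were higher by sign, with 2 at an unadjusted *p* under 0.05 (*Tdo2* and *Dsp*) and a median of 0.34. Their mean signal ran from 7.67 to 7.93 in wild-type and from 7.76 to 8.36 in NL-G-F·*Mutyh* mice, so the groups overlapped. For *Dsp*, NL-G-F·*Mutyh* replicate 3 (7.78) lay within the wild-type range of 7.47 to 7.92, and *Pdzd2* stood at 101% wild type. All 6 of CA2 and CA3 were also higher by sign, with 2 at an unadjusted *p* under 0.05 (*Amigo2* and *Iyd*) and a median of 0.12.

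Of 6 microglial markers, 3 were higher at an unadjusted *p* under 0.05, *Csf1r*, *Aif1*, and *P2ry12*, with a median of 0.21. By sign 5 were higher and 1 lower, with *Tmem119* at 92.3% and *Cx3cr1* at 100% wild type. Of 6 astrocyte markers, 0 were lower or higher at an unadjusted *p* under 0.05, with a median of 0.09. Of 3 endothelial markers, 1 was lower at an unadjusted *p* under 0.05 (*Cldn5*, 74.2% wild type). *Pecam1* stood at 106% and *Flt1* at 97.1% wild type, and the median was −0.04. Of 4 choroid plexus markers, 0 were lower or higher at an unadjusted *p* under 0.05, with a median of 0.03. The part of these cell types and of the cut at dissection in the member values was not tested.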

How the data were processed

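RNA from the hippocampus of 6 mice, 3 in each group, was measured on 6 arrays. The authors processed the arrays with Transcriptome Analysis Console 4.0 and deposited log2 signals for 41345 transcript clusters. These were taken unaltered. How the signals were summarized and normalized, and the genome build, was not given in the sources used here. Of the transcript clusters, 23521 carried 1 symbol, 1820 several, and 16004 none in the platform annotation. That the replicates are separate animals is taken from the labels.

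Transcript clusters with a group mean of at least 50 in intensity in 1 or both groups were tested with limma 3.58.1 in R 4.3.3 and adjusted by the Benjamini-Hochberg method over all 21159. The test was tried on simulated data with independent noise and with log2 differences larger than that of any member. That trial does not bear on shifts between arrays or series. Standard errors and intervals of differences are limma's moderated ones. The SD is over the 3 mice of a group, and so few arrays limit the precision.

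The members and lists were chosen with earlier results of these data known. Named genes were all members, the genes of each cytoskeletal list with an unadjusted *p* under 0.05 (at most the 4 with the smallest *p*, or, with none, the 2 with the smallest), the 5 genes most like each member group, *App*, and *Mutyh*. Cell type lists are given by their counts and medians, with genes at an unadjusted *p* under 0.05. Other genes of the cell type lists were named without a fixed rule and whatever their *p*. Promoters came from RefSeq (GRCm38.p6), where 5 of 10 members matched by symbol, and bases inside the annotated gene were left out. Motifs were searched as exact letters on both strands.

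Other settings tried were: leaving out each mouse in turn, the replicate number as a block, array weights, a trend of the variance with intensity (robust), quantile normalization, scaling to the median signal of each array (over all or over tested transcript clusters), single-symbol transcript clusters, averaging over the transcript clusters of a gene, and the intensity minimum dropped or required of both groups.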

Additional observations from a re-analysis of the deposited data

How the results depend on the processing

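No member passed the adjusted test under any of the 16 alternatives. *Mapt* stayed lower and *Nefl*, *Nefm*, and *Map2* higher in all 16. Centring each array on the median of all its transcript clusters gave −0.0317 for *Nefh*, −0.0262 for *Ina*, and −0.00742 for *Map1b*, quantile normalization −0.00417 for *Nefh* and −0.00949 for *Ina*, and array weights 0.0391 for *Map1a*. With 1 array left out in turn, the log2 difference ran from −0.0117 to 0.0722 for *Nefh*, from −0.0364 to 0.0872 for *Ina*, from −0.131 to 0.166 for *Prph*, from −0.0805 to 0.0767 for *Map1a*, and from −0.121 to 0.0651 for *Map6*, and the median over the MAP genes from −0.0680 to 0.0767. The neurofilament median ran from 0.0104 to 0.114 over the 16. The 14 cytoskeletal genes named outside the members kept their sign in all 16, and an unadjusted *p* under 0.05 held in all 16 for *Tubb3* and *Gfap*, in 15 for *Csnk1e* and *Ank1*, in 12 for *Plec*, in 11 for *Tubb5*, in 10 for *Dcx*, and in 6 for *Ppp3ca*. The members with an unadjusted *p* under 0.05 numbered 2 with array weights (*Nefm* at 0.40 beside *Mapt*) and 1 to 2 with an array left out, the second again being *Nefm*, without wild-type replicate 1.

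Of all transcript clusters, 12 were called higher and 1 lower. The counts were 36 and 7 with single-symbol transcript clusters and 38 and 4 with array weights. The replicate block left 2 called higher and 0 lower, and the 0 lower was also found with the minimum in both groups and with an intensity trend. With 1 array left out, 2 to 3 were called higher and 0 to 1 lower. Deviations of same-numbered mice correlated at −0.10, 0.02, and −0.06. Whether same-numbered mice shared a litter or a day of processing is not given in the labels and was not tested. Under the replicate block *Mapt* had an adjusted *p* of 0.381 (limma). At an unadjusted *p* under 0.05, the split of 1878 higher and 1005 lower became 1049 and 1585 after the centring on all transcript clusters, which moved the median of all tested transcript clusters from 0.02 to −0.02, and 1402 and 1380 with quantile normalization. The causes were not tested.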
